A study of Mus musculus with 3 samples.

Results

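The arms of miR-28, miR-151 and miR-708 were followed in TAG1 mouse ES cells while p-Smad2/3 signaling was inhibited and then induced. The set was chosen by name, as every listed arm of these 3 hairpins, and it holds 6 of the 693 listed miRNAs. A miRNA is listed only if it had 10 or more reads over the 3 libraries, and the set was picked with the levels of these libraries known, so all values are given as a description. TAG1 is an ES cell line in which doxycycline (Dox) turns on Alk4*, a constitutively active receptor that phosphorylates Smad2/3. The untreated library (0 hr) came from TAG1 cells in medium with serum. The SB library (16 hrs SB) came from TAG1 cells treated with 30 µM SB-431542 (SB-431541 in the sample labels), an inhibitor of the type I receptors, during 16 hrs. The Dox library (16+12 hrs) came from cells that received this SB treatment and afterwards 1 µg/µl Dox during 12 hrs. Both SB treated cultures were in serum replacement, so the change of medium and the inhibitor cannot be told apart in comparisons with untreated cells. Between the SB and Dox libraries, Alk4* induction cannot be told apart from 12 hrs more culture, Dox itself or the end of SB treatment. No library came from cells kept for this further time after SB without Dox. Each condition was sequenced as 1 library, so no difference has a replicate check and no p-value is given.

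Each miRNA hairpin can release a mature miRNA from its 5′ side (5p) and another from its 3′ side (3p), and Argonaute usually retains more of one of them. Bases 2 to 8 of a mature miRNA, the seed, pair with target mRNAs, so that miRNAs with equal seeds are expected to share many targets. The hairpins of this set lie in introns of protein-coding genes, and such miRNAs are commonly made from the host transcript. In the GENCODE annotation of GRCm38 the miR-708 hairpin lies at chr7:96249424-96249532 on the + strand, within an intron of Tenm4, which encodes a teneurin transmembrane protein. The miR-151 hairpin lies at chr15:73254815-73254882 on the − strand, within an intron of Ptk2, the gene of focal adhesion kinase. The miR-28 hairpin (Mir28a in the annotation) lies at chr16:24827855-24827940 on the + strand, within an intron of Lpp, which encodes a LIM domain protein of focal adhesions. Each hairpin was on the strand of its host gene and overlapped none of its annotated exons.

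The mature sequences of miR-708 and miR-28 in RefSeq (GRCm38.p6) are shown because the 5p arms of these hairpins share a seed, and because the arms of 1 hairpin are compared below. The seed is in capitals, and all sequences run 5′ to 3′.

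miR-708-5p: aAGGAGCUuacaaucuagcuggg

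miR-28-5p: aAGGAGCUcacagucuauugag

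miR-708-3p: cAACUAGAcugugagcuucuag

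miR-28-3p: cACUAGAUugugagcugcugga

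miR-708-5p, at chr7:96249450-96249472, and miR-28-5p, at chr16:24827868-24827889, had the same seed, and the first 8 bases of both were equal. Over the 22 positions of miR-28-5p the pair shared 16 bases. Counted from the 5′ end, miR-708-5p differed from miR-28-5p by C9U, G13A, U18G, U19C, G20U and A21G, all outside the seed. No other mature sequence among the 1679 in the RefSeq table held this seed, and 77.5% of the listed names were matched to that table, so listed miRNAs without an entry were not examined for it. The 3p arms, at chr7:96249496-96249517 and chr16:24827908-24827929, had different seeds, and their longest common stretch was 8 bases that start at position 10 of miR-708-3p and at position 9 of miR-28-3p. The authors kept reads longer than 16 bases and allowed no mismatch. The longest stretch that any of these 4 sequences shared with an entry of another gene was 13 bases, so no full-length match of a kept read to one of these arms could also lie in another entry of the table. miR-151-5p, miR-151-3p and the listed miRNA miR-28c had no mature entry. Whether they share these seeds, or stretches as long as a kept read, was not examined here. Reads that match one of them as well as an arm printed above were therefore not excluded.

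The files give levels in reads per 1000000 reads of the library (rpm), and the reads behind a value can be read back because every value is a whole multiple of what 1 read is worth. The totals by which the reads had been divided, recovered from what 1 read is worth, were between 9895513 and 11354692 reads, of which 28.3% in untreated cells, 24.1% with SB and 33.4% with Dox lay on listed miRNAs. These totals are lower than the numbers of sequenced reads that the study states, and what was left out of them is not given in the sources used here. The 6 arms had between 187 and 5274 reads in a library, and none had the same values as another listed miRNA. A list of 16 miRNAs typical of ES cells, mostly of the miR-290~295 and miR-302 clusters, was listed in full and held 27.0% to 28.9% of the miRNA reads. Its summed level was 81815 rpm in untreated cells, 65165 rpm with SB and 93752 rpm with Dox. Intervals in parentheses are 95% exact intervals. They describe the counting error of reads alone and not the spread between cultures. Reads that carry no molecular identifier cannot be taken as separate molecules, so the intervals may be too narrow even for counting error.

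miR-708-5p was the most abundant arm of the set in every library, with 258 rpm (249 to 268) in untreated cells, 160 rpm (153 to 168) with SB and 533 rpm (519 to 548) with Dox. It was thus lowest under the inhibitor and highest after Alk4* induction. miR-708-3p followed the same order over a wider range, with 66.4 rpm in untreated cells, 26.4 rpm (23.5 to 29.6) with SB and 222 rpm (213 to 232) with Dox. From 300 reads with SB it reached 2199 reads with Dox, and its place among the listed miRNAs moved from 233 to 114.

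miR-151-3p had 118 rpm (112 to 125) in untreated cells, 85.2 rpm (79.9 to 90.7) with SB and 191 rpm (182 to 200) with Dox. miR-151-5p, from the same hairpin, had 75.1 rpm (70.1 to 80.4), 87.5 rpm (82.2 to 93.2) and 168 rpm (160 to 176) in the same order. In rpm the arms of miR-151 went in opposite directions from untreated to SB-treated cells. Relative to miR-26a-5p, a reference miRNA, miR-151-3p was lower with SB (log2 ratio of −0.72), while miR-151-5p was nearly unchanged (−0.02). Both were highest with Dox.

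miR-28-3p had 28.5 rpm (25.4 to 31.8), 33.7 rpm (30.4 to 37.3) and 60.3 rpm (55.6 to 65.4). miR-28-5p was the lowest arm of the set in every library, with 17.1 rpm (14.7 to 19.7), 24.3 rpm (21.5 to 27.4) and 40.9 rpm (37.0 to 45.1). In rpm both arms of miR-28 had their lowest value in untreated cells, where the miR-708 arms did not. For miR-28-3p the untreated and SB intervals overlapped, and relative to miR-26a-5p its log2 ratio for SB over untreated was 0.0013.

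**Figure D1:**
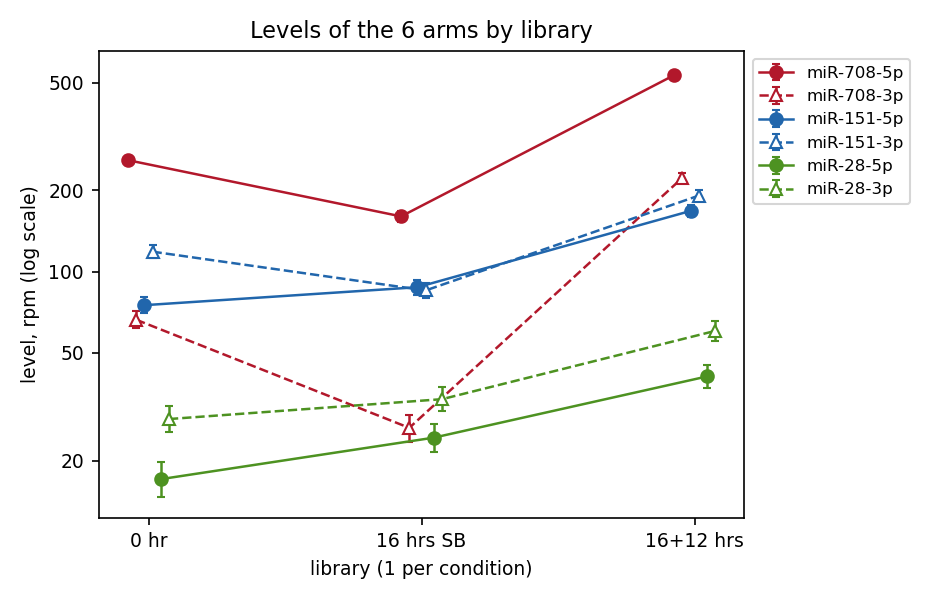
Level of each arm in rpm (log axis) in the 3 libraries, 1 library per condition. Points are the values, filled circles for 5p and open triangles for 3p, and bars are 95% exact Poisson intervals. All 6 arms were highest with Dox, and the miR-708 arms dropped with SB.

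The order of the 6 levels changed with the library. In untreated cells it ran miR-708-5p, miR-151-3p, miR-151-5p, miR-708-3p, miR-28-3p and miR-28-5p. Only miR-151-5p and miR-708-3p had overlapping intervals there as neighbours. With SB the arms of miR-151 could not be separated, and miR-708-3p stood in position 5, with an interval that overlapped that of miR-28-5p. With Dox miR-708-3p stood in position 2, above both miR-151 arms, and no neighbours overlapped. Comparing levels of different miRNAs also includes differences in ligation and amplification between sequences, which were not measured.

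Compared with untreated cells, the SB library had less of both miR-708 arms. The log2 ratio was −0.69 (−0.78 to −0.61) for miR-708-5p, which is 1.61-fold lower, and −1.33 (−1.53 to −1.13) for miR-708-3p, which is 2.51-fold lower. miR-151-3p was 1.39-fold lower, with a log2 ratio of −0.48 (−0.60 to −0.36). The study's methods require a fold change together with a Z-score, lower with SB than untreated and also higher with Dox than with SB. The threshold used here is that fold change alone, a log2 ratio of at least 0.32 in size, in each comparison taken singly. These 3 arms were past it downward, as were 42.9% of all listed miRNAs. miR-28-5p was 1.42-fold higher, at a log2 ratio of 0.51 (0.24 to 0.79), and it was the only arm past the threshold upward, where 26.0% of listed miRNAs were. miR-151-5p (0.22, 0.09 to 0.36) and miR-28-3p (0.24, 0.02 to 0.46) were 1.17-fold and 1.18-fold higher, short of the threshold. The median log2 ratio of the 6 arms was −0.13 and that of all listed miRNAs was −0.19, with 3 arms above and 3 below the latter. Scaling the libraries by miRNA reads, by the median of ratios, by TMM or by quantiles changed these counts. All listed miRNAs then had a median between −0.05 and 0.04, and that of the 6 arms turned to 0.10 with miRNA reads, 0.054 with the median of ratios and 0.078 with TMM. Upward, 3 arms instead of 1 were past the threshold, since miR-151-5p and miR-28-3p passed it too, while the count over all 693 listed miRNAs went from 180 to between 223 and 243. Downward, 2 arms instead of 3 were past it with miRNA reads, the median of ratios and TMM, where miR-151-3p had log2 ratios of −0.25, −0.29 and −0.27. Over all listed miRNAs the downward count went from 297 to 222, 232 and 225 with these scalings. With miR-26a-5p as the reference, miR-151-5p had a log2 ratio of −0.02 and miR-28-5p, at 0.27, was short of the threshold. Relative to all listed miRNAs, the difference of the log2 ratio from the median was −1.14 for miR-708-3p and 0.70 for miR-28-5p.

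A list of fibroblast miRNAs, which ES cultures can hold through feeder cells, also differed between these libraries. Of its 12 names 10 were listed, and together they had 2264 rpm in untreated cells, 5329 rpm with SB and 2890 rpm with Dox. This is 0.80%, 2.21% and 0.87% of the miRNA reads, with single markers between 0.10 and 2486 rpm and none at 0. The highest single marker had 1159 rpm in untreated cells, 2486 rpm with SB and 2041 rpm with Dox. The Dox sum thus rested mostly on a single marker. The part of such cells in the levels of the 6 arms was not tested. In bulk libraries fewer cells of a type and less RNA per cell cannot be told apart.

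From SB to Dox, both in serum replacement, all 6 arms were past the threshold upward, as were 52.5% of the listed miRNAs. None was lower, against 26.6% of those listed. miR-708-3p was 8.41-fold higher, with a log2 ratio of 3.07 (2.90 to 3.25), and only 5 listed miRNAs had a larger ratio. Among the 291 listed miRNAs with at least 100 reads in every library, 1 had a larger ratio. miR-708-5p was 3.33-fold higher, with a log2 ratio of 1.74 (1.66 to 1.81), above 92.2% of the listed miRNAs. miR-151-3p and miR-151-5p followed with log2 ratios of 1.17 (1.05 to 1.28) and 0.94 (0.82 to 1.05). The miR-28 arms had the smallest ratios, 0.84 (0.65 to 1.03) for miR-28-3p and 0.75 (0.53 to 0.98) for miR-28-5p, which is 1.79-fold and 1.68-fold. The median over the 6 arms was 1.05, beside 0.38 over all listed miRNAs. Scaled by miRNA reads, the median of all listed miRNAs moved to −0.09. The 6 arms then had log2 ratios between 0.28 and 2.60, and 5 of them were past the threshold, since miR-28-5p, the lowest, was short of it. Over all 693 listed miRNAs this scaling gave 222 higher and 286 lower, in place of 364 and 184.

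Between untreated and Dox-treated cells the arms differed less among themselves. All 6 were past the threshold upward, as were 42.6% of listed miRNAs, and none was past it downward, as were 29.1%. The log2 ratio was 1.26 (1.01 to 1.52) for miR-28-5p, 1.08 (0.88 to 1.29) for miR-28-3p, 1.16 (1.04 to 1.28) for miR-151-5p and 1.04 (0.98 to 1.11) for miR-708-5p. These 4 arms had overlapping intervals. miR-708-3p was higher than these, at 1.74 (1.62 to 1.87), and miR-151-3p lower, at 0.69 (0.59 to 0.79). The median over the arms was 1.12, beside 0.19 over all listed miRNAs. Scaled by miRNA reads, all 6 arms were still past the threshold upward, beside 211 listed miRNAs higher and 264 lower in place of 295 and 202. The 3 comparisons use the same 3 libraries, so they are not independent of each other.

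**Figure D2:**
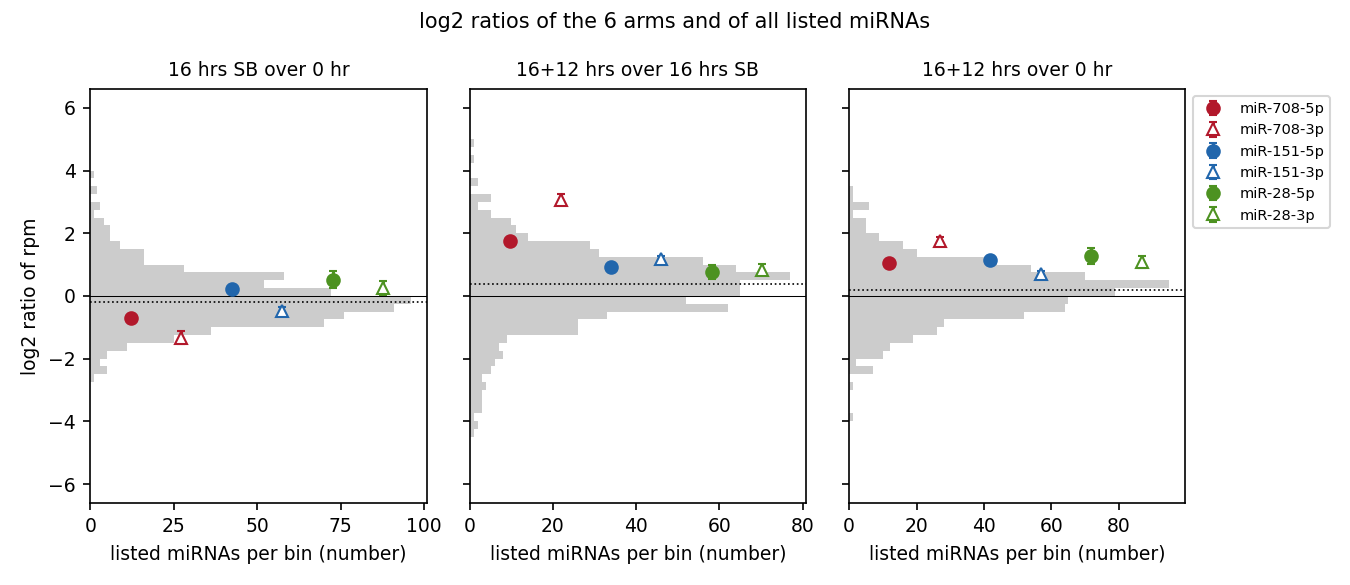
log2 ratio of rpm for the 6 arms (symbols with 95% exact intervals) beside the numbers of all 693 listed miRNAs in bins of the log2 ratio (grey bars), in each of the 3 comparisons. The dotted line is the median of all listed miRNAs, and miR-708-3p lies far above it in the comparison of Dox with SB.

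The arms of 1 hairpin are measured in the same library, so their ratio does not change when a library is multiplied by 1 scaling factor. Quantile normalization, which is no such factor, gave 3p shares of 26.8% for miR-708 with Dox and 63.8% for miR-151 in untreated cells, beside the 29.4% and 61.2% given here. miR-708-3p made up 20.4% (19.1 to 21.8) of the miR-708 reads in untreated cells, 14.2% (12.7 to 15.7) with SB and 29.4% (28.4 to 30.5) with Dox. miR-708-5p was the major arm throughout, but its excess over the 3p arm went from 3.89-fold to 6.06-fold and then to 2.40-fold. The ratio of 3p over 5p changed by −0.64 (−0.85 to −0.42) on the log2 scale from untreated to SB-treated cells and by 1.34 (1.14 to 1.53) from SB to Dox. The latter is a 2.53-fold change toward the 3p arm.

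For miR-151 the arm with more reads was 3p in untreated cells and with Dox, and 5p by a small margin with SB. The 3p arm held 61.2% (59.1 to 63.3) of its reads in untreated cells, 49.3% (47.1 to 51.5) with SB and 53.3% (51.6 to 54.9) with Dox. With SB the interval included 50%, so neither arm was in excess beyond counting error. The log2 ratio of 3p over 5p changed by −0.70 (−0.88 to −0.51) from untreated to SB-treated cells and by only 0.23 (0.07 to 0.39) from there to Dox. With Dox it remained 1.38-fold below its value in untreated cells.

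For miR-28 the 3p arm was the major arm in each library, with 62.5% (58.1 to 66.8), 58.1% (54.2 to 61.9) and 59.6% (56.5 to 62.6). These intervals overlapped, and the change of the 3p over 5p ratio had intervals that included 0 in all 3 comparisons, for example −0.27 (−0.62 to 0.09) from untreated to SB-treated cells. With 187 reads for miR-28-5p in untreated cells, a change of this size was not detectable at this depth.

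**Figure D3:**
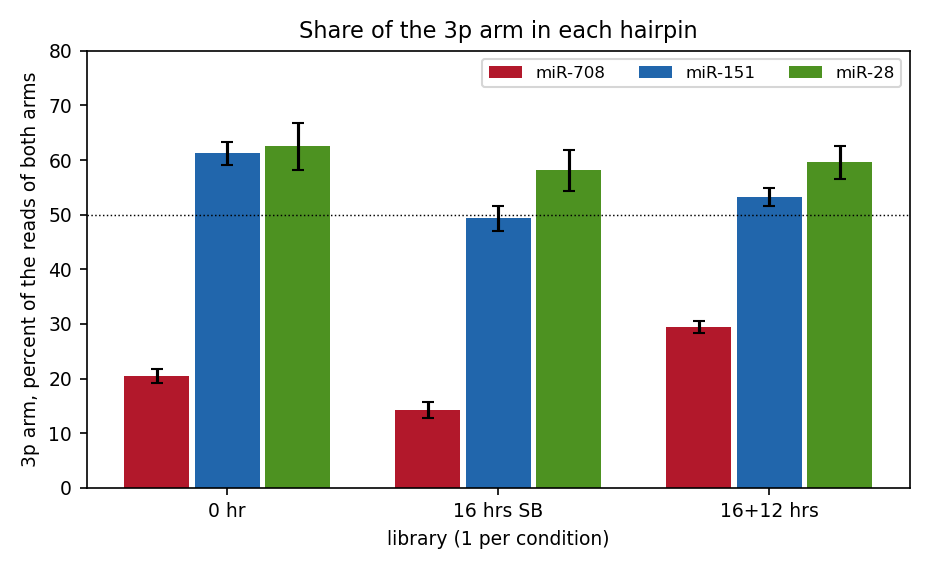
Share of the 3p arm in the reads of both arms of each hairpin, in percent, by library. Bars carry 95% exact Clopper-Pearson intervals, the dotted line marks 50%, and miR-708 has the lowest share in every library while its share with Dox, 29.4%, is the highest of its 3 values.

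Among hairpins with at least 100 reads for both arms in every library, 62 in all, 5 did not have the same arm as the more abundant one in every library, miR-151 and also miR-1306, miR-23b, miR-292 and miR-485. From untreated to SB-treated cells, 2 of the 3 hairpins of the set changed toward 5p past the threshold, which 21.0% of the 62 did, and none changed toward 3p, which 29.0% did. miR-151 and miR-708 lay at the 5p end of this order, with 5 and 6 hairpins below them. From SB to Dox only miR-708 was past the threshold, toward 3p, as were 30.6% of the hairpins, while none of the set was past it toward 5p, as were 45.2%. In this comparison 4 hairpins had a larger change toward 3p than miR-708, with miR-182 (4.17-fold) and miR-431 (3.54-fold) leading, and the median of the 62 was −0.25 on the log2 scale. From untreated to Dox miR-708 was past the threshold toward 3p (24.2% of hairpins) and miR-151 toward 5p (45.2% of hairpins).

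**Figure D4:**
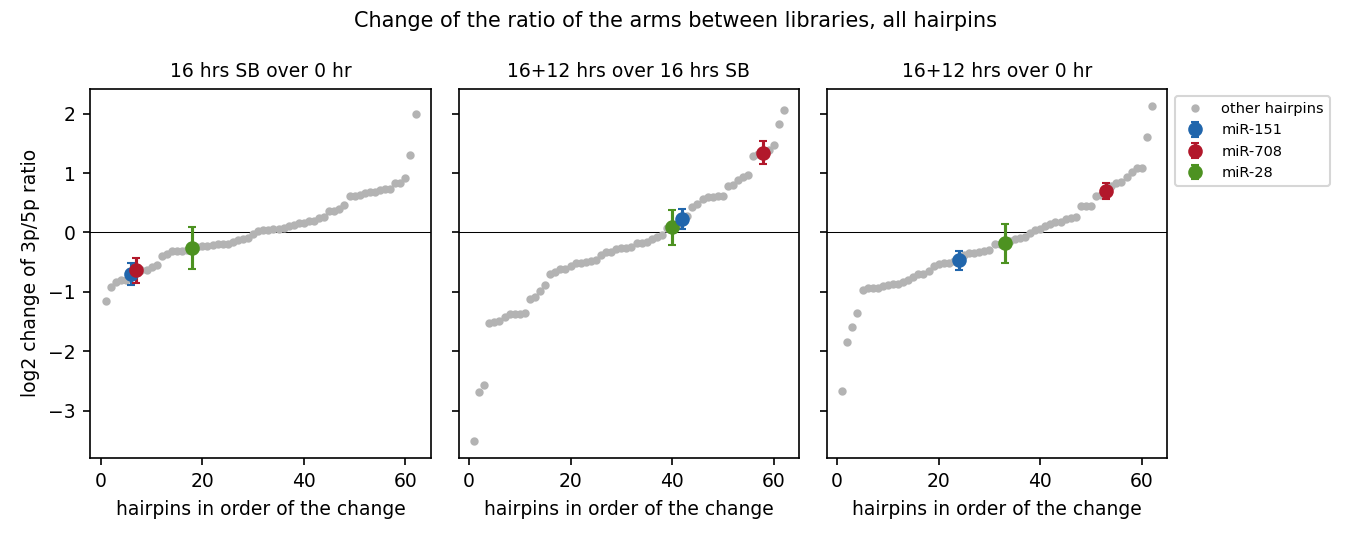
Change of the 3p over 5p ratio on the log2 scale between libraries for the 62 hairpins with at least 100 reads per arm and library, placed in order of the change (grey points), with 95% exact intervals for miR-708, miR-151 and miR-28. In the comparison of Dox with SB, miR-708 stands near the top of the order at 1.34, whereas miR-28 lies near 0.

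The makeup of the set followed these differences. Together the 6 arms made up 0.199% of the miRNA reads in untreated cells, 0.173% with SB and 0.364% with Dox. miR-708 gave 57.6% (56.3 to 58.8) of the reads of the set in untreated cells, 44.7% (43.3 to 46.1) with SB and 62.2% (61.3 to 63.0) with Dox. The share of miR-28 was highest with SB, 13.9% (12.9 to 14.9), against 8.08% in untreated cells and 8.33% with Dox. For the seed AGGAGCU, printed in capitals in the sequences of both 5p arms, the summed level of miR-708-5p and miR-28-5p, the listed arms known to hold it, was 275 rpm, 184 rpm and 574 rpm. miR-708-5p supplied 93.8% (92.9 to 94.6) of this sum in untreated cells, 86.8% (85.3 to 88.2) with SB and 92.9% (92.2 to 93.5) with Dox. The summed level of this pair therefore went with miR-708-5p, although miR-28-5p itself had its lowest rpm in untreated cells.

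Over all listed miRNAs that lie within a protein-coding gene on its strand and outside its exons, 228 arms of 148 hairpins with the 6 arms among them, the median log2 ratio was −0.05 for SB over untreated, 0.40 for Dox over SB and 0.32 for Dox over untreated. The names of 87.4% of listed miRNAs could be placed in the annotation for this. The medians over all listed miRNAs were −0.19, 0.38 and 0.19 in these comparisons. Of the 228, 123 were higher and 57 lower past the threshold with Dox than with SB, beside 364 higher and 184 lower of all 693 listed miRNAs. The 6 arms thus had a median above that of intronic miRNAs in both comparisons of the Dox library.

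The listed miRNAs whose pattern was most like that of an arm were found by the distance between their log2 ratios for SB over untreated and for Dox over SB, so the likeness rests on 3 libraries. Among 285 candidates with at least 100 reads in every library, miR-130b-5p and miR-291b-5p were nearest to miR-708-5p, at distances of 0.11 and 0.13. miR-708-3p had no close neighbour, with miR-877-5p at 0.60 and miR-181d-5p at 0.77. For miR-151-5p and miR-28-3p the nearest were miR-467e-5p and miR-27a-3p, at distances from 0.02 to 0.18. miR-9-5p and miR-335-3p were nearest to miR-151-3p, at 0.06 and 0.13, and miR-150-5p and miR-27a-3p to miR-28-5p, at 0.06 and 0.17.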

How the data were processed

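Short RNA of 3 TAG1 cultures was sequenced on an Illumina GAII, with 2 runs pooled per library. The authors clipped adaptors and used Bowtie 0.12.7 to align reads of over 16 bases to miRBase 18, without mismatches. They assigned a read with several matches by length or to each match. The deposited unit is rpm, reads per 1000000 reads of the library, calculated by the authors. Reads were read back here from the step of each file, and every value lay within 3.98e-05 of a whole read. Log2 ratios used rpm without a pseudocount, and no test was run with 1 library per condition. Intervals are Poisson for levels, Clopper-Pearson for shares and ratios, and conditional exact for ratios of arms (scipy 1.17.1), tested on simulated data. Arms were paired by name. Alternatives were 5 scalings, log2(rpm + 1), other thresholds and minimum reads. Other miRNAs were named by a rule: shared seed, the 2 nearest to each arm in log2 ratios, the hairpins with the largest changes of arms, and miR-26a-5p. Hairpins whose more abundant arm differed between libraries were named after their values were seen. Members, lists and rules were chosen with earlier results of these data known.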

Additional observations from a re-analysis of the deposited data

How the results depend on the processing

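No paired analysis was possible because each condition is 1 library. Depth limited miR-28 most, with 187 to 597 reads per arm and library. No arm past the threshold changed direction under any of the 5 scalings or with log2(rpm + 1). The median log2 ratio of the arms for SB over untreated was 0.10 with libraries scaled to miRNA reads, 0.054 by the median of ratios, 0.078 by TMM and −0.37 with miR-26a-5p. For Dox over SB these were 0.58, 0.67 and 0.67, and 0.74 by quantiles. For Dox over untreated they were 0.88, 0.92 and 0.94, then 0.97 by quantiles and 0.82 with miR-26a-5p. The arms past the threshold upward with SB numbered 3 with miRNA reads, the median of ratios, TMM and quantiles, and 0 with miR-26a-5p or thresholds of 1.5 and 2. Over all 693 listed miRNAs the upward counts were 243, 225, 235 and 223, then 129 with miR-26a-5p and 127 at 1.5, in place of 180. Those past it downward with SB numbered 2 instead of 3 with miRNA reads, the median of ratios, TMM or a threshold of 1.5, beside 222, 232, 225 and 211 in place of 297 over all listed. Those past it upward from SB to Dox numbered 5 instead of 6 with miRNA reads. A threshold of 2 left 1 arm lower with SB and 3 higher with Dox than with SB, and 5 for Dox over untreated. For all listed miRNAs it left 64 higher and 86 lower with SB, 167 and 82 in the comparison with Dox, and 108 and 78 for Dox over untreated. A minimum of 100 summed reads gave 94 higher with SB, 115 lower in the comparison with Dox, and 189 higher and 125 lower for Dox over untreated. Scaled to miRNA reads, 222 were higher and 286 lower in the comparison with Dox. Quantiles gave 3p shares of 26.8% for miR-708 with Dox and 63.8% for miR-151 in untreated cells. With 20 reads per arm, 12 of 136 hairpins exceeded miR-708 in the comparison with Dox.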

Other observations

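A further miRNA of the miR-28 name, miR-28c, was also listed and is no arm of the hairpins described. It had 12 reads in untreated cells, 10 reads with SB and 18 reads with Dox, or 1.10 rpm, 0.881 rpm and 1.82 rpm. The intervals of its log2 ratios included 0 in each comparison, from −0.15 to 2.32 for Dox over SB, so no difference was detectable at this depth.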
